A study of Mus musculus with 24 samples.

Results

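The genes described here are 10 feedback regulators of inflammatory signalling in mouse macrophages. The TTP family of mRNA destabilisers is Zfp36, Zfp36l1 and Zfp36l2. The Regnase endoribonucleases are Zc3h12a and Zc3h12c. The ubiquitin editor A20 and its adaptors are Tnfaip3, Tnip1 and Tnip3, and the other deubiquitinases are Cyld and Otud1. They were chosen by symbol, with 1 row per gene ID, and all 10 have a row among 22996 genes measured in bone marrow-derived macrophages (BMDMs) and among 54380 genes measured in the macrophage line J774.1.

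Polyadenylated RNA was sequenced in 24 libraries, in 8 groups of 3. BMDMs, grown from the marrow of male C57BL6/N mice aged 6 to 12 weeks, received Ctbp2 siRNA, Ctbp1 siRNA or control siRNA, and each was then given 100 ng/ml lipopolysaccharide (LPS) for 4 h or the PBS vehicle. J774.1 cells, a female BALB/c line, were Ctbp1/2 double knockout or wildtype and all received LPS, so that no J774.1 library without LPS was analysed here. CtBP1 and CtBP2 are nuclear co-repressors. The labels do not say whether replicates came from separate animals or cultures, nor whether the knockout cells are 1 clone or a pool, so p-values measure the spread between these samples. Values are in TPM, a share of all transcripts corrected for gene length, from which neither depth nor counting error can be had.

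LPS engages the receptor TLR4 and, through chains of ubiquitin, the transcription factor NF-kB. A20 and the ABIN adaptors encoded by Tnip1 and Tnip3 restrain that signal at the ubiquitin step, and CYLD and OTUD1 cleave ubiquitin chains. TTP, the product of Zfp36, binds AU-rich elements in the 3′ untranslated regions of cytokine transcripts and recruits deadenylases, while Regnase-1, the product of Zc3h12a, cuts stem-loops in many of the same transcripts.

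The heptamer TATTTAT is the preferred TTP site and occurs in some regulators' own transcripts as well as in cytokine transcripts. The 30-base windows with most copies are shown for the TTP family and for Tnf, the classic TTP target, read 5′ to 3′ on the transcript strand from GENCODE M21 transcripts (GRCm38), with the heptamers in capitals.
Zfp36: gggcccttTATTTATgacgacttTATTTAT
Zfp36l1: agcttatttaacttatcaaaacgTATTTAT
Zfp36l2: tcaatatgaaaaactatttaactTATTTAT
Tnf: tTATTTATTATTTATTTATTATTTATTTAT
The Tnf window holds 5 heptamers, which overlap, and its 3′ untranslated region 8. The Zfp36 window holds 2, and each of the 3 TTP family transcripts has 3 in all. Tnfaip3, Zc3h12c and Cyld have 2 each, Tnip3 and Otud1 have 1 each, and none was found in Zc3h12a or Tnip1. Of 1020527 windows of 30 bases tiled side by side over the 3′ untranslated regions of 20979 genes, 0.686% hold the heptamer, searched on the transcript strand. The windows shown were instead picked for most copies, so that share is no background for them. At least 1 heptamer was found in 27.5% of those genes, whose median untranslated length is 954 bases, beside 8 of the 10 genes here, whose lengths run from 752 to 4932 bases; length was not matched. A match is a description of the letters, not of binding.

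Promoters were searched on both strands for the NF-kB consensus, a pattern of 10 bases, because LPS acts through NF-kB. RefSeq (GRCm38.p6) gives promoters for 9 of the 10 genes, 11 in all, each 300 bases long with 250 bases before and 50 after the start. Among all 32851 RefSeq promoters of that length, 8.46% hold a match, beside 5 of the 11 here. Each of the 3 genes of the A20 axis has a promoter with a match. Those promoters are shown with the matches in capitals, 5′ to 3′ on the gene's strand: Tnfaip3 at chr10:19015361-19015660 (minus strand), Tnip1 at chr11:54962891-54963190 (minus strand) and Tnip3 at chr6:65590148-65590447 (plus strand).
Tnfaip3: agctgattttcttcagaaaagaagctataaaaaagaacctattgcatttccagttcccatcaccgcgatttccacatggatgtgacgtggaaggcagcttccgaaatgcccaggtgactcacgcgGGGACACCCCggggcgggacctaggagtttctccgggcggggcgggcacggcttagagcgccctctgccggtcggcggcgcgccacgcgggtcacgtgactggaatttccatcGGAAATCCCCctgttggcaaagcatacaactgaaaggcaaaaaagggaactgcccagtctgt
Tnip1: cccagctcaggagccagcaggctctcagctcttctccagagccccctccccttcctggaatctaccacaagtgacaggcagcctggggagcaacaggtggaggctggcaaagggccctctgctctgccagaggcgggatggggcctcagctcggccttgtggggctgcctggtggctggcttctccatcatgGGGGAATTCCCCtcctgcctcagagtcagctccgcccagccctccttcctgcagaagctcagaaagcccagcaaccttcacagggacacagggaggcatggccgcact
Tnip3: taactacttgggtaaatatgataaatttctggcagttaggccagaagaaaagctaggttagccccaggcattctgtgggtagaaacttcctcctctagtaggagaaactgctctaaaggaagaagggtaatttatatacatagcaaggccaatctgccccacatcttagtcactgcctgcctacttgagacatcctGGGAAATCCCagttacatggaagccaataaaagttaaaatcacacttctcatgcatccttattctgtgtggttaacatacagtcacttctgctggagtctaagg
Tnfaip3 has 2 matches in this promoter, Tnip1 has 3 that overlap each other, and Tnip3 has 1. Cyld and Zc3h12c have 1 each, and the windows of Zfp36, Zfp36l1, Zc3h12a and Otud1 hold none of these letters. Tnfaip3 and Zc3h12c each have a second promoter, not shown, which holds none either.

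Each siRNA lowered its own target. Ctbp2 was at 12.1 ± 1.70 TPM with Ctbp2 siRNA and LPS, against 38.2 ± 1.82 TPM with control siRNA and LPS (SD, n = 3 each; limma adjusted p = 2.15e-08). Ctbp1 was at 50.8 ± 4.46 TPM with Ctbp1 siRNA and LPS, against 123 ± 7.33 TPM with control siRNA and LPS (adjusted p = 8.45e-09). In the double knockout Ctbp1 was at 19.9 ± 3.30 TPM, against 161 ± 3.81 TPM in wildtype, whereas Ctbp2 was at 63.1 ± 1.38 TPM, against 78.2 ± 3.52 TPM; whole-gene TPM does not show whether that transcript encodes protein. All 8 macrophage markers reached 1 TPM in every BMDM group, and markers of other cells were not all absent. Neutrophil markers summed to 83.1 to 114.5 TPM over the BMDM groups with 5 of 8 at 1 TPM or more, dendritic markers to 119 to 167 TPM, nearly all of it Itgax, and lymphocyte markers to at most 0.246 TPM. In J774.1 cells 6 of 8 macrophage markers did, summing to 1581 TPM in the double knockout and 1417 TPM in wildtype, and they did not move together. Adgre1 (F4/80) was at 15.8 TPM in the double knockout, against 225 TPM in wildtype, whereas the other 5 were higher, among them Csf1r (335 against 233 TPM), Itgam (47.7 against 19.4 TPM) and Fcgr1 (79.8 against 25.4 TPM). Mertk and Mrc1 were near 0 in both. The dendritic list summed to 7.18 TPM in the double knockout and 1.20 TPM in wildtype, nearly all of the first being Itgax (6.83 against 0.666 TPM). In bulk RNA, fewer cells of a kind and less RNA per cell cannot be told apart. The library kit keeps no strand, so Zfp36 reads cannot be told from those of the antisense gene Gm44710 (1.31 to 5.07 TPM over the BMDM libraries), and likewise for Zfp36l1 with Gm26669, Zfp36l2 with AC132455.1 and Zc3h12c with Mir6244. The third control siRNA LPS library, labelled replicate 4, stood apart for several of the 10 genes, and values that it moved most are given with and without it.

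LPS reorganised the TTP family in BMDMs. Zfp36 rose, while Zfp36l1 and Zfp36l2, relatives with the same zinc fingers, fell. Zfp36 was at 307, 306 and 282 TPM in the control siRNA LPS libraries, against 82.4, 84.0 and 85.0 TPM in the control siRNA vehicle libraries. The groups lay far apart (log2 fold change 1.82, SE 0.06, limma adjusted p = 1.72e-14). Zfp36l2 was at 35.9, 33.5 and 49.5 TPM with LPS, against 225, 233 and 228 TPM with vehicle (−2.52, SE 0.09, adjusted p = 1.75e-13). Zfp36l1 was at 7.26, 9.03 and 13.7 TPM with LPS, against 51.4, 54.4 and 59.4 TPM with vehicle (−2.39, SE 0.18, adjusted p = 1.9e-09). For both relatives the highest LPS value was that of replicate 4, and it was still far below every vehicle value.

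The make-up of the TTP family turned over while its summed TPM differed less. The sum was 348 ± 2.68 TPM with LPS and 368 ± 7.37 TPM with vehicle under control siRNA (SD, n = 3 each). Zfp36 made up 85.7% ± 3.50 of the sum with LPS, against 22.8% ± 0.178 with vehicle. Zfp36l2 made up 11.4% ± 2.57 with LPS, against 62.2% ± 0.902 with vehicle. The order of levels turned round with it: Zfp36l2 was the seventh of the 10 genes in LPS and the first in vehicle, in each siRNA background. These sums are of transcripts and say nothing of the proteins.

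**Figure D1:**
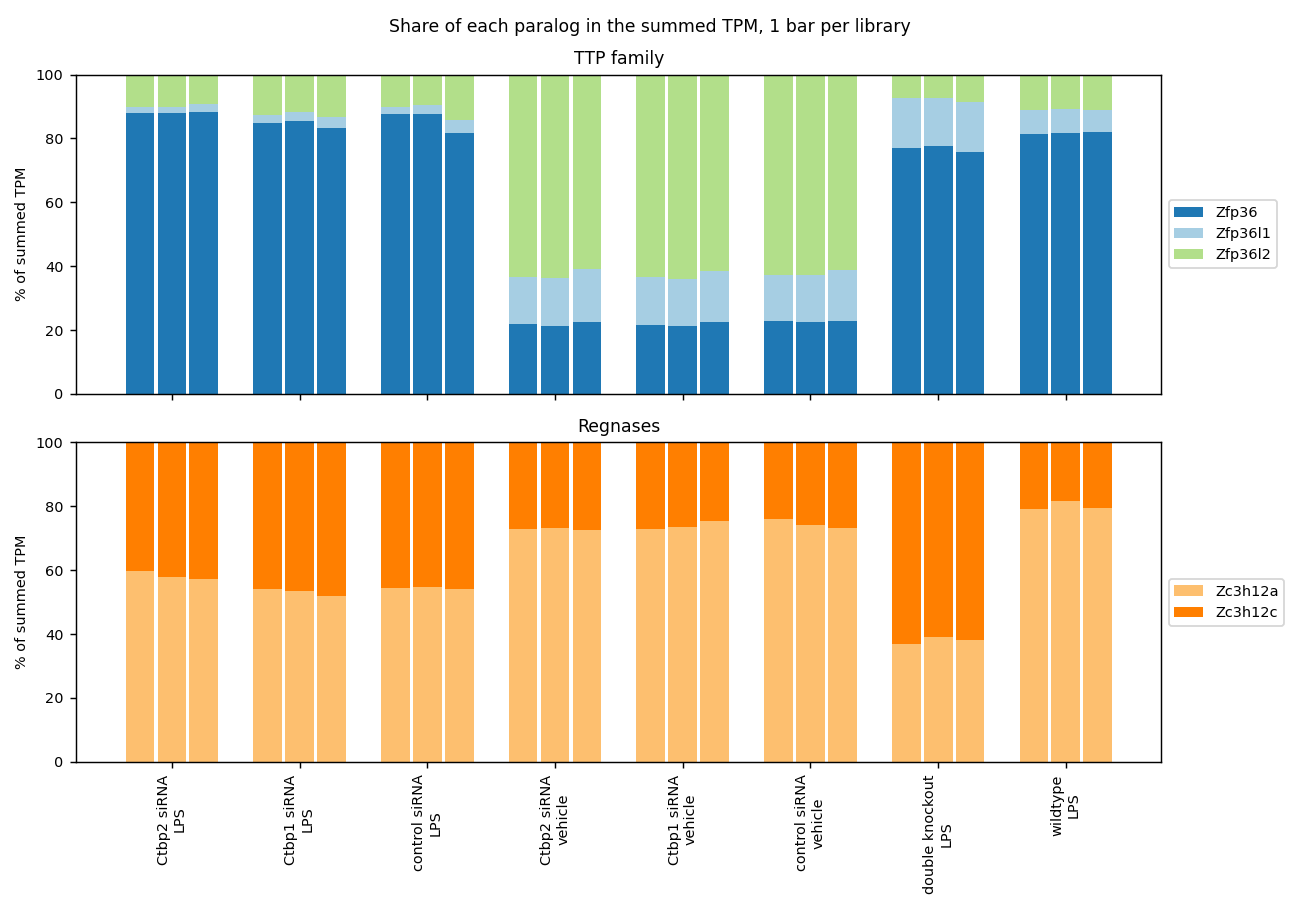
Share of each paralog, as a percentage of summed TPM, in the TTP family (top) and in the Regnases (bottom), with 1 bar per library in 8 groups of 3. Zfp36 takes 81.7% to 88.2% of the TTP family sum in the LPS BMDM libraries and 21.2% to 22.9% in the vehicle libraries, and Zc3h12c averages 61.9% of the Regnase sum in double knockout J774.1 libraries and 20.0% in wildtype ones.

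Both Regnases rose with LPS, Zc3h12c more steeply. Zc3h12c, which encodes Regnase-3, was at 128, 132 and 119 TPM with LPS, against 8.20, 8.59 and 9.42 TPM with vehicle (log2 fold change 3.71, SE 0.06, adjusted p = 3.83e-18). Zc3h12a was at 154, 159 and 140.4 TPM with LPS, against 25.8, 24.6 and 25.6 TPM with vehicle (2.53, SE 0.06, adjusted p = 1.27e-15). The lowest of the 10 in vehicle, Zc3h12c thus came near Zc3h12a in LPS, taking 45.6% ± 0.265 of the Regnase sum, against 25.6% ± 1.43 in vehicle (SD, n = 3 each).

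The A20 axis rose as a whole and held the first 3 places of the 10 in LPS under control siRNA. Tnfaip3 was at 433, 455 and 328 TPM with LPS, against 18.9, 15.6 and 18.5 TPM with vehicle, the steepest rise of the 10 (log2 fold change 4.44, SE 0.10, adjusted p = 2.06e-16). Tnip1 was at 543, 536 and 479.8 TPM with LPS, against 73.1, 71.4 and 67.1 TPM with vehicle (2.86, SE 0.05, adjusted p = 9.11e-18). Tnip3 was at 351, 350.2 and 349 TPM with LPS, against an already high 118, 136 and 122 TPM with vehicle (1.48, SE 0.05, adjusted p = 4.64e-14). In LPS the values of Tnfaip3 and Tnip3 overlapped because of replicate 4, while Tnip1 stood above both in every library.

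The other deubiquitinases moved less, and in opposite directions. Cyld was at 33.2, 30.2 and 29.8 TPM with LPS, against 22.1, 22.3 and 22.2 TPM with vehicle (log2 fold change 0.46, SE 0.06, adjusted p = 9.37e-07). Otud1 was at 7.81, 7.58 and 9.94 TPM with LPS, against 13.2, 12.9 and 12.0 TPM with vehicle (−0.54, SE 0.11, adjusted p = 0.000383). The median log2 fold change of all 7918 genes tested was −0.21, so Otud1 lay only modestly below it and Cyld above it. After median-of-ratios scaling the all-gene median was 0.11, a shift that applies to all LPS values below, and the Otud1 value was −0.24 (adjusted p = 0.0464).

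In all, 7 of the 10 genes were called higher and 3 lower with LPS under control siRNA, and the groups overlapped for none of them. Of all genes tested, 23.3% were called higher and 53.1% lower, 76.4% in all, and 77.7% did not overlap, so a call by itself sets no gene apart. Zc3h12c in vehicle and Otud1 in LPS averaged under the 10 TPM that the test asks of the mean over all libraries, and with a filter at 1 TPM, which all 10 genes pass in both groups, the 10 calls stood. After scaling the all-gene split was 45.3% higher and 27.3% lower. At least 2-fold higher were 6 of the 10 genes, against 7.12% of all genes, and at least 2-fold lower were 2, against 9.71%. The median over the 10 was 1.65 on the log2 scale, beside −0.21 over all genes. Among the stromal markers only Pdgfrb moved with LPS. The 4 genes summed to between 5.59 and 7.24 TPM in the LPS groups, nearly all of it Pdgfrb, and to at most 0.081 TPM in the vehicle groups. Col1a1, Col1a2 and Dcn stayed at 0.091 TPM or less. Macrophage markers moved too under control siRNA. Mertk was at 4.89 TPM with LPS, against 26.7 TPM with vehicle. Fcgr1 (30.5 against 91.0 TPM), Mrc1 (138 against 254 TPM), Cd68, Itgam and, slightly, Lyz2 were also lower. Adgre1 (1549 against 945 TPM) and Csf1r (1133 against 939 TPM) were higher. The part of these markers in the result was not tested.

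**Figure D2:**
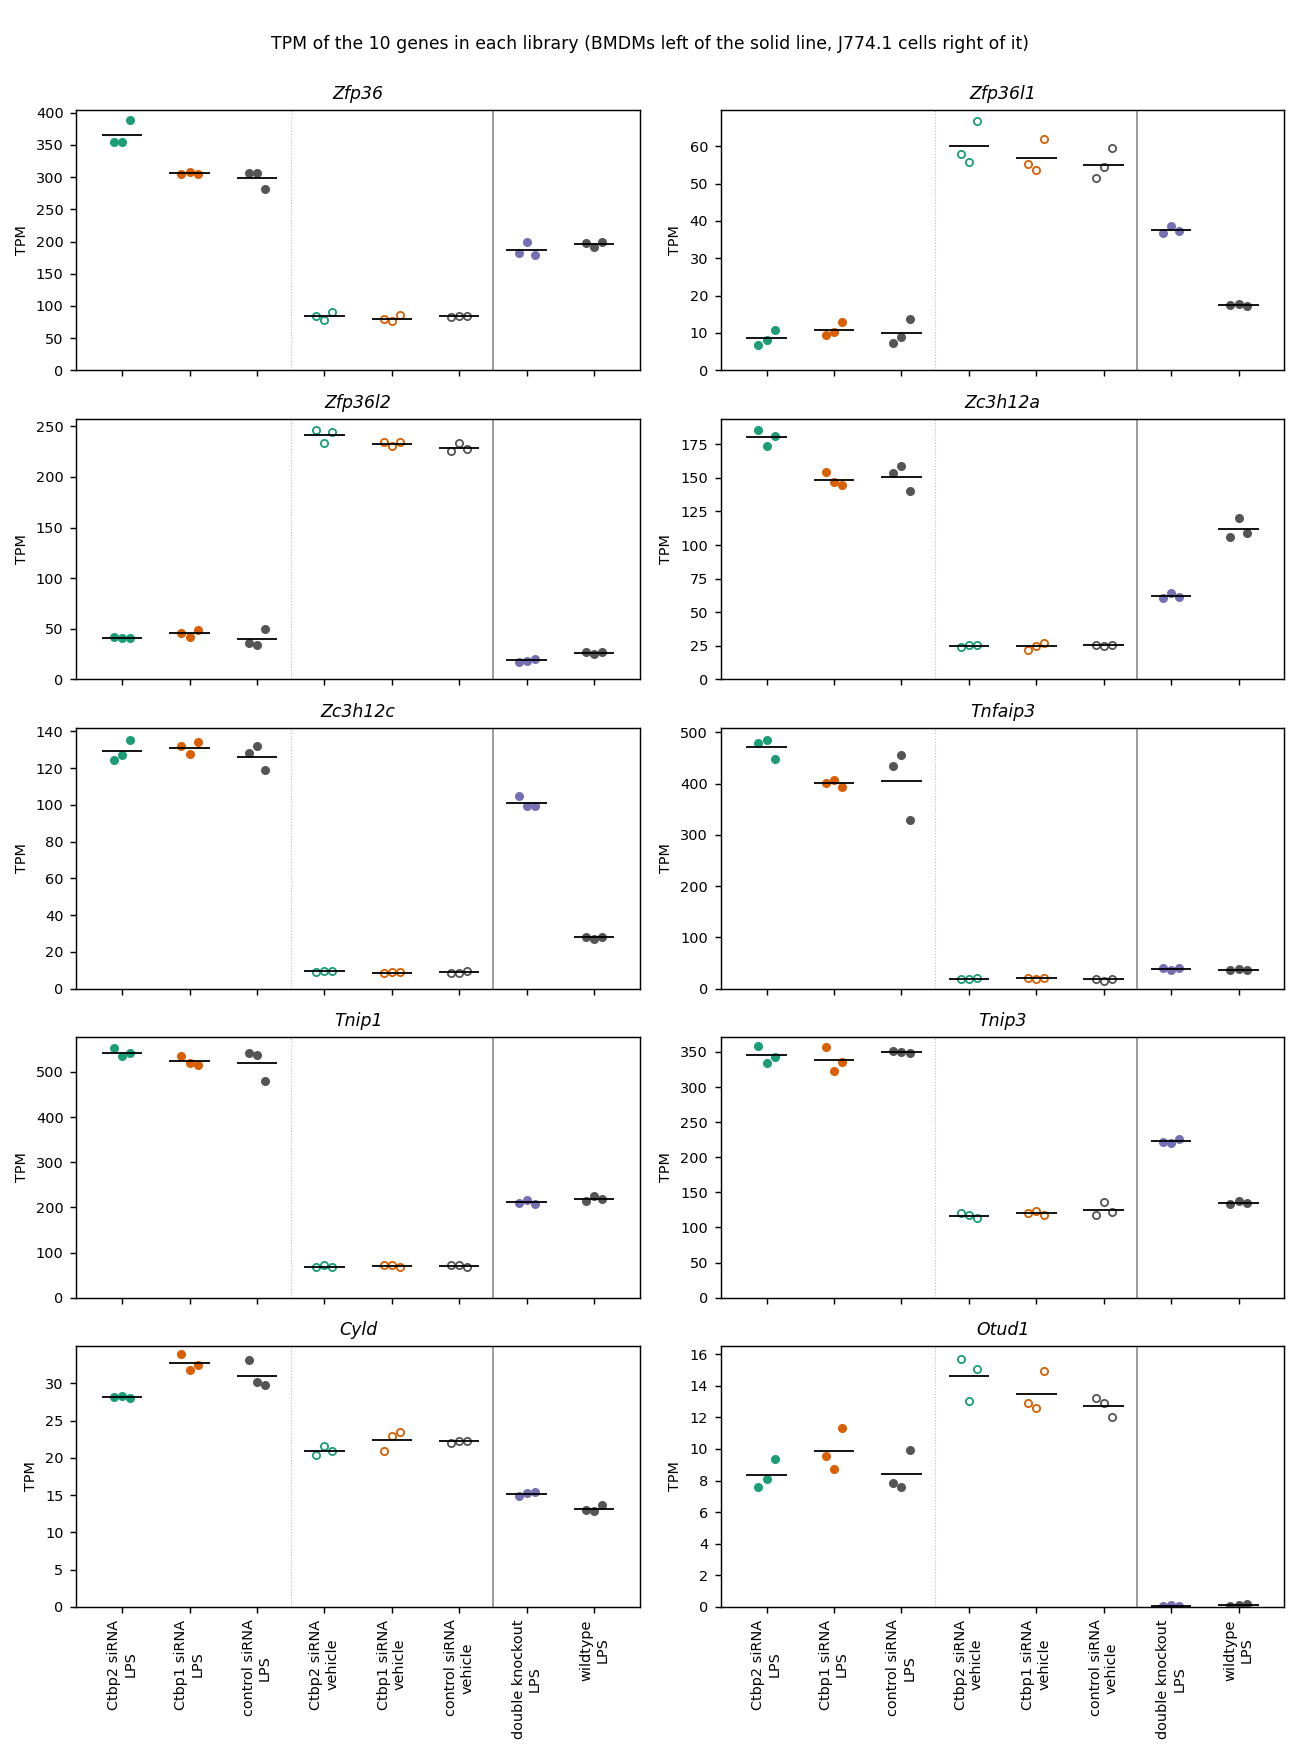
TPM of each of the 10 genes (linear axis from 0) in every library, with filled points for LPS, open points for vehicle and a bar at each group mean of 3 libraries. Tnfaip3 has LPS values of 328 TPM or more and vehicle values of 20.7 TPM or less in BMDMs, and Zfp36l2 shows the reverse order, with 33.5 to 49.5 TPM in LPS and 225 TPM or more in vehicle.

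The LPS response was measured again in libraries that share none with the control siRNA comparison, and the same 7 genes rose and the same 3 fell under Ctbp2 siRNA and under Ctbp1 siRNA. Of all genes, 78.7% were called with Ctbp2 siRNA (23.5% higher, 55.2% lower) and 75.4% with Ctbp1 siRNA (24.5% higher, 50.9% lower). The Tnfaip3 log2 fold change was 4.57 (95% interval 4.36 to 4.78) with Ctbp2 siRNA, 4.29 (4.08 to 4.49) with Ctbp1 siRNA and 4.44 (4.23 to 4.65) with control siRNA. The Zfp36l1 log2 fold change was −2.68, −2.29 and −2.39 in that order of siRNAs, with the widest intervals of the 10. Otud1 changed by −0.74, −0.42 and −0.54. After scaling, the Otud1 value with Ctbp1 siRNA was −0.14 and no longer called (adjusted p = 0.235). The authors' deposited table called Otud1 lower with Ctbp2 siRNA (−0.44, adjusted p = 0.000844) but neither with Ctbp1 siRNA (−0.15, adjusted p = 0.313) nor with control siRNA (−0.26, adjusted p = 0.068), and called the other 9 genes in all 3 backgrounds, beside 51.3%, 50.7% and 50.1% of all genes in that order.

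**Figure D3:**
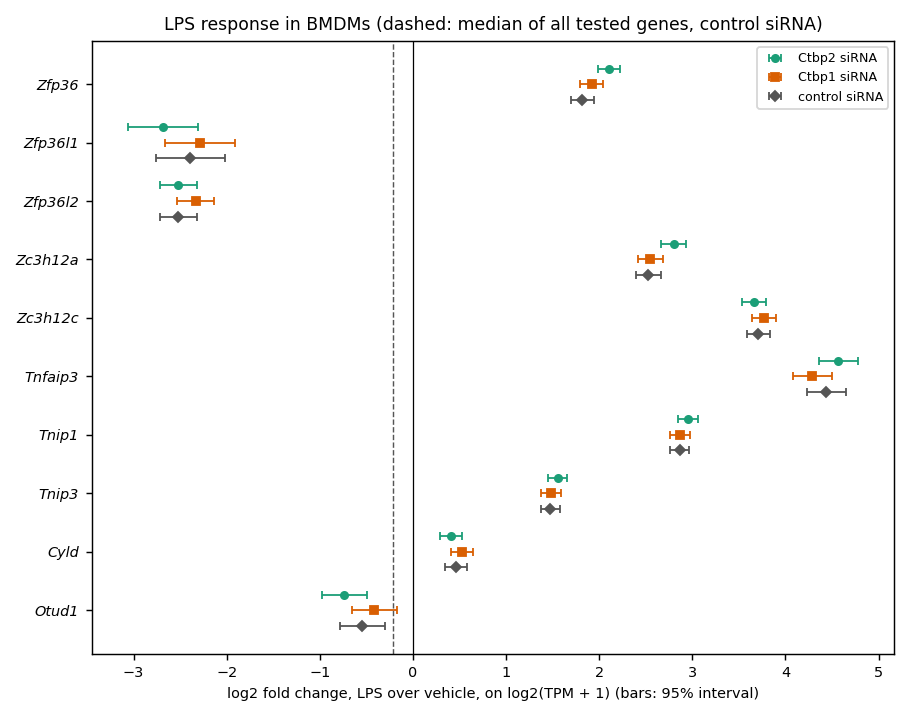
Log2 fold change of LPS over vehicle on log2(TPM + 1) for the 10 genes in BMDMs with Ctbp2 siRNA, Ctbp1 siRNA or control siRNA; bars are 95% intervals from limma (3 libraries a group) and the dashed line is the median of all 7918 tested genes with control siRNA, at −0.21. Within each gene the 3 backgrounds lie close together, with Zfp36 at 2.11, 1.92 and 1.82 in that order.

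Among partners of these genes, the listed ubiquitin machinery genes of NF-kB signalling, mostly of ligases and adaptors, rose more often than they fell with LPS under control siRNA. Of 12 tested, 8 were called higher and 2 lower. Peli1, a ubiquitin ligase of the Toll-like receptor pathway, was at 166 ± 25.8 TPM with LPS, against 18.7 ± 0.752 TPM with vehicle (log2 fold change 3.07), and Birc3 (cIAP2) at 260 ± 8.97 TPM, against 47.9 ± 2.78 TPM (2.42; SD, n = 3 each). Of 10 direct A20 partners 4 were called higher and 2 lower, among them Tnip2, which encodes the ABIN that did not rise (32.1 ± 2.46 TPM with LPS, against 52.2 ± 5.46 TPM with vehicle; −0.68). Of 11 other deubiquitinases 6 were called higher, led by Usp18, the deconjugase of ISG15 (1.21), and 2 lower. The all-gene shares called, 23.3% higher and 53.1% lower, stand beside these counts. After scaling the counts were 10 higher and 0 lower for the ubiquitin machinery genes, 8 and 1 for the A20 partners, and 10 and 0 for the deubiquitinases. The all-gene shares called were then 45.3% higher and 27.3% lower.

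Among genes of the decay machinery that TTP recruits, the direction of the list as a whole rested on the scaling. Of 16 tested genes of CCR4-NOT and deadenylation 3 were called higher and 9 lower, with a median of −0.19 beside −0.21 over all genes, whereas after scaling 6 were higher and 3 lower. The largest change was a fall, with Tob1, which bridges deadenylases to their targets, at −1.53 and the deadenylase Cnot6l at −0.96 on the log2 scale. Large changes went both ways. After scaling Btg1 was higher by 1.18, while Tob1 was at −1.23, Cnot6l at −0.64 and Cnot10 at −0.41. Of 13 decapping and exonuclease genes 4 were called higher and 1 lower (9 and 0 after scaling), and no called change exceeded the 0.59 of Dcp2, the decapping enzyme gene. The kinase gene Mapkapk2, whose product MK2 phosphorylates TTP, was at 1017 ± 58.4 TPM with LPS, against 148 ± 5.76 TPM with vehicle (2.77). Zc3h12d, a further Regnase relative, fell to 3.89 ± 1.07 TPM with LPS, against 31.2 ± 0.269 TPM with vehicle (−2.74). N4bp1, an endoribonuclease gene, rose by 1.35. Of the 13 other RNA-binding proteins and MK2-arm genes 6 were called higher and 5 lower (8 and 4 after scaling). Of all genes, 23.3% were called higher and 53.1% lower (45.3% and 27.3% after scaling), to be read beside these list counts. Of 15 listed transcripts known as TTP or Regnase-1 targets, 3 were too low to test, and 8 of the 12 tested reached the mean of 10 TPM only through LPS, so that their rise followed from the filter and no count is read from this list. The 4 at 10 TPM or more in both groups were Tnf (4314 TPM with LPS, against 37.1 TPM with vehicle), Cxcl2 (6489 against 12.2 TPM), Ccl3 (6924 against 130.3 TPM) and Ccl2 (314 against 106 TPM). Also below the filter and left out were 2 of 14 ubiquitin machinery genes, 3 of 14 deubiquitinases and 2 of 18 CCR4-NOT genes. So were 2 of 15 decapping genes and 2 of 15 RNA-binding and MK2-arm genes. Tob1, Zc3h12d and 1 of the 13 decapping genes passed it only through vehicle, so that the direction of these genes followed from the filter. Their falls are not read as a result of their lists.

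By Pearson correlation of log2(TPM + 1) over the 18 BMDM libraries, the genes whose pattern lay nearest to Zfp36 among 7917 others were Zc3h12a (0.9975), Tab2 (0.9974) and H2-Q7 (0.9969). For Zc3h12a they were Tma16 (0.9986), Tnf (0.9985) and Cxcl1 (0.9984), and for Tnfaip3 they were Cxcl3, Il1b and Ccl5 (0.9992 each). The libraries fall into an LPS and a vehicle set, which all these genes separate.

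Ctbp2 siRNA raised a pair of the 10 genes in LPS, Zfp36 and Zc3h12a, each an RNA-decay factor. Zfp36 was at 355, 355 and 389 TPM with Ctbp2 siRNA, against 307, 306 and 282 TPM with control siRNA, with no overlap. The log2 fold change was 0.29 (SE 0.06, 95% interval 0.17 to 0.41, limma adjusted p = 0.0099), small beside the 1.82 of LPS itself. Zc3h12a was at 186, 174 and 181 TPM with Ctbp2 siRNA, against 154, 159 and 140.4 TPM with control siRNA, again with no overlap (0.26, SE 0.06, 0.12 to 0.39, adjusted p = 0.0416). These are 2 of 10 genes called, against 3.17% of all genes and 0.77% called higher and 2.4% lower. Over the 10 genes the median was 0.05, against −0.05 over all genes.

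The Zfp36 call was kept with any 1 library left out. It was lost when only the 6 libraries compared were fitted (adjusted p = 0.12). The Zc3h12a call was lost there too (0.172), and with a filter at 1 TPM (0.0543), no filter (0.103) or plain eBayes (0.0502). It was also lost, with adjusted p between 0.0506 and 0.145 and log2 fold changes between 0.20 and 0.28, without any of 10 single libraries: Ctbp2 siRNA LPS replicate 1, 3 or 4, Ctbp2 siRNA vehicle replicate 3, Ctbp1 siRNA LPS replicate 4, Ctbp1 siRNA vehicle replicate 3, control siRNA LPS replicate 1 or 4, and control siRNA vehicle replicate 1 or 4. The authors' deposited table, from DESeq2, called the same pair higher, Zfp36 by 0.37 (adjusted p = 5.42e-05) and Zc3h12a by 0.33 (adjusted p = 0.00629), and none of the other 8, beside 4.23% of all genes.

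The remaining 8 genes were not called with Ctbp2 siRNA in LPS. Tnfaip3 was at 478, 485 and 448 TPM with Ctbp2 siRNA, against 433, 455 and 328 TPM with control siRNA (log2 fold change 0.23, 0.02 to 0.44, adjusted p = 0.215), and the groups overlapped. Without control siRNA LPS replicate 4, at 328 TPM, the value was 0.08 (adjusted p = 0.689). Cyld was at 28.2, 28.3 and 28.0 TPM, against 33.2, 30.2 and 29.8 TPM, without overlap (−0.13, −0.25 to −0.02, adjusted p = 0.196); in all, 3 of the 10 genes did not overlap, against 19.8% of all genes. For Tnip1, Tnip3 and Zc3h12c the 95% intervals lay between −0.13 and 0.17. For Zfp36l1 the value was −0.17 and the interval was widest, from −0.54 to 0.20; without replicate 4 of the control siRNA LPS libraries the value was 0.06 (adjusted p = 0.906). Without control siRNA LPS replicate 4, Zfp36l2 was called higher with Ctbp2 siRNA (0.24, adjusted p = 0.0229), whereas with it the value was 0.07 (adjusted p = 0.701).

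In vehicle, limma called none of the 10 genes with Ctbp2 siRNA, against 1.02% of all genes, and none had an unadjusted p under 0.05, against 13.3%. The authors' deposited table called none of the 9 for which it gives an adjusted p (Otud1 has none), against 2.85%. Zfp36 was at 84.4, 77.7 and 90.9 TPM with Ctbp2 siRNA, against 82.4, 84.0 and 85.0 TPM with control siRNA (log2 fold change 0.01, −0.11 to 0.13). Zc3h12a was at 23.8, 25.5 and 25.7 TPM, against 25.8, 24.6 and 25.6 TPM (−0.02, −0.15 to 0.12). Both intervals held 0, and for both genes the groups overlapped. Whether Ctbp2 siRNA changed their LPS response was tested as an interaction. It was 0.29 for Zfp36 (0.12 to 0.46, unadjusted p = 0.00234, adjusted p = 0.224) and 0.27 for Zc3h12a (0.08 to 0.47, adjusted p = 0.351). Neither was called. Those were the 2 genes of the 10 with an unadjusted p under 0.05, against 8.26% of all genes, and 0.101% of all genes were called.

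With Ctbp1 siRNA limma called none of the 10, in LPS (0.152% of all genes called) or in vehicle (0.215%). The authors' deposited table called none either, beside 0.277% of all genes in LPS and 1.72% in vehicle, where it gives no adjusted p for Otud1. In LPS Zfp36 was at 305, 309 and 305 TPM with Ctbp1 siRNA, against 307, 306 and 282 TPM with control siRNA (log2 fold change 0.04, −0.08 to 0.16). Zc3h12a was at 154, 147 and 145 TPM, against 154, 159 and 140.4 TPM (−0.02, −0.16 to 0.12). At an unadjusted p under 0.05 there was 1 gene in LPS, against 8.02% of all genes, and none in vehicle, against 10.2%. That gene was Zfp36l2, at 45.5, 42.2 and 48.6 TPM with Ctbp1 siRNA, against 35.9, 33.5 and 49.5 TPM with control siRNA (0.21, 0.01 to 0.41, adjusted p = 0.601). Without control siRNA LPS replicate 4 it was called higher (0.38, adjusted p = 0.00125). Leaving out that library also moved Tnfaip3 to −0.15, against −0.0037 with it, and Zfp36l1 to 0.38, against 0.15 with it, neither called. No interaction with LPS was called, beside 0.0126% of all genes, and none had an unadjusted p under 0.05, beside 6.57%. None of the 7 lists of partners and targets held a called gene in either Ctbp1 siRNA comparison. With all-gene shares of 0.152% and 0.215%, the lack of a call sets neither the lists nor the 10 genes apart. In vehicle the 95% intervals ran from −0.33 to 0.42 for Zfp36l1 and between −0.18 and 0.36 for the other 9. The siRNA comparisons share the control libraries.

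**Figure D4:**
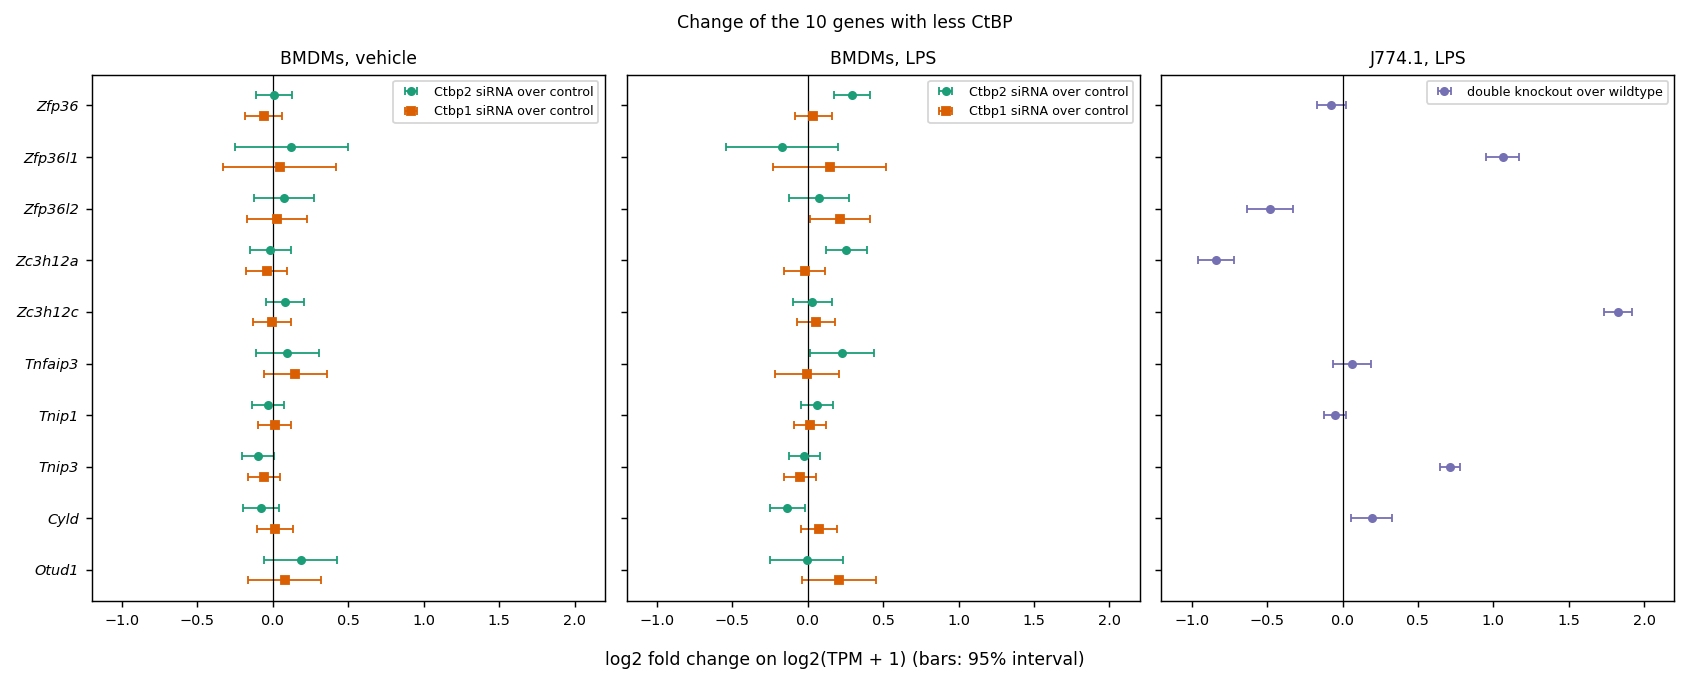
Log2 fold change on log2(TPM + 1) with 95% intervals from limma (3 libraries a group) for each siRNA over control siRNA in vehicle (left) and in LPS (middle) BMDMs, and for double knockout over wildtype J774.1 cells (right), where Otud1 was too low to test. In LPS BMDMs only the Ctbp2 siRNA intervals of Zfp36 (0.17 to 0.41), Zc3h12a (0.12 to 0.39), Tnfaip3 (0.02 to 0.44) and Cyld (−0.25 to −0.02) and the Ctbp1 siRNA interval of Zfp36l2 (0.01 to 0.41) leave out 0, while in J774.1 cells Zc3h12c lies at 1.83 and Zc3h12a at −0.84.

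Set directly against Ctbp1 siRNA, Ctbp2 siRNA in LPS gave higher Zfp36 and Zc3h12a and lower Cyld. The log2 fold change was 0.26 for Zfp36 (SE 0.06, adjusted p = 0.0158), 0.28 for Zc3h12a (SE 0.06, adjusted p = 0.021) and −0.21 for Cyld (SE 0.06, adjusted p = 0.036). Cyld was at 28.2, 28.3 and 28.0 TPM with Ctbp2 siRNA, against 33.9, 31.8 and 32.5 TPM with Ctbp1 siRNA. Called were 3 of the 10, against 6.79% of all genes (1.31% higher, 5.48% lower). Tnfaip3 was at 478, 485 and 448 TPM with Ctbp2 siRNA, against 402, 407 and 393 TPM with Ctbp1 siRNA, without overlap, and was not called (0.23, adjusted p = 0.153). It was called without control siRNA LPS replicate 4 (adjusted p = 0.0409), a library of neither group, and with only the libraries compared (0.0435). The log2 fold change was 0.23 in both.

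These 3 calls were each lost under some alternatives. The Cyld call was lost without any 1 of the 6 libraries compared (adjusted p 0.0599 to 0.0963) and after scaling (−0.13, adjusted p = 0.267). It was also lost with only those 6 libraries fitted (0.0895) and with no filter (0.0723). The Zfp36 call was lost without Ctbp1 siRNA LPS replicate 4 (0.0567) or Ctbp2 siRNA LPS replicate 4 (0.0583). The Zc3h12a call was lost without Ctbp1 siRNA LPS replicate 3 (0.0639) or 4 (0.077), or Ctbp2 siRNA LPS replicate 1 (0.0833) or 4 (0.0523). With no filter it was lost too (0.06). In vehicle limma called none of the 10, beside 0.947% of all genes, and none had an unadjusted p under 0.05, beside 11.9%.

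Of the listed TTP and Regnase-1 targets, 3 of 12 tested (of 15 listed, each tested one at 10 TPM or more in both groups) were called higher with Ctbp2 siRNA than with Ctbp1 siRNA in LPS and none lower, against 1.31% of all genes called higher. Csf2 was at 64.8 ± 22.7 TPM with Ctbp2 siRNA, against 29.8 ± 10.2 TPM with Ctbp1 siRNA (log2 fold change 1.09, adjusted p = 0.0435). Il12b was at 138 ± 24.4 TPM, against 67.2 ± 4.59 TPM (1.01, adjusted p = 0.0359). Tnf was at 5417 ± 159 TPM, against 4054 ± 23.0 TPM (0.42, adjusted p = 0.037; SD, n = 3 each). Against control siRNA in LPS none of the 12 was called, with a median of 0.46 beside −0.05 over all genes. With Ctbp2 siRNA in vehicle the deubiquitinase gene Usp10 fell by 0.48 (adjusted p = 0.0247) and the RNA-binding protein gene Tial1 by 0.22 (adjusted p = 0.0493), and nothing else on the 7 partner and target lists was called. Tial1 was also lower with Ctbp2 siRNA than with Ctbp1 siRNA in LPS (−0.20, adjusted p = 0.0302). After scaling Usp10 was still called (−0.43, adjusted p = 0.0464), while Tial1 was called neither in vehicle (−0.17, adjusted p = 0.14) nor in LPS (−0.11, adjusted p = 0.238). Scaling also added calls in LPS, all higher with Ctbp2 siRNA. Against control siRNA they were 2 CCR4-NOT genes and 1 gene of the RNA-binding and MK2-arm list, and against Ctbp1 siRNA 1 and 2.

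In LPS-treated J774.1 cells the double knockout changed each family within itself. Zc3h12c rose and Zc3h12a fell; Zfp36l1 rose and Zfp36l2 fell. Zc3h12c was at 104.5, 99.6 and 99.3 TPM in the double knockout, against 28.2, 27.2 and 28.1 TPM in wildtype (log2 fold change 1.83, SE 0.04, adjusted p = 1.02e-08). Zc3h12a was at 60.8, 64.0 and 61.5 TPM, against 106, 120.5 and 109 TPM (−0.84, SE 0.05, adjusted p = 3.66e-06). Zc3h12c made up 61.9% ± 1.18 of the Regnase sum in the double knockout, against 20.0% ± 1.36 in wildtype (SD, n = 3 each).

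Zfp36l1 was at 36.7, 38.7 and 37.3 TPM in the double knockout, against 17.5, 17.7 and 17.2 TPM in wildtype (log2 fold change 1.06, SE 0.05, adjusted p = 6.08e-07). Zfp36l2 was at 17.4, 18.4 and 20.2 TPM, against 27.2, 25.3 and 26.8 TPM (−0.48, SE 0.07, adjusted p = 0.000558). Zfp36 itself was at 182, 199 and 179.8 TPM, against 198, 192 and 199.9 TPM, with overlap, and was not called (−0.07, −0.17 to 0.02, adjusted p = 0.2). Zfp36 kept most of the family sum, 76.8% ± 0.984 in the double knockout and 81.7% ± 0.220 in wildtype.

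Along the A20 axis Tnip3 rose in the double knockout, and Tnip1 was called only after scaling and in the authors' deposited table. Tnip3 was at 221, 220.2 and 226 TPM in the double knockout, against 134, 138 and 135 TPM in wildtype (log2 fold change 0.71, SE 0.03, adjusted p = 3.29e-07). Tnfaip3 was at 39.4, 36.6 and 39.4 TPM, against 35.5, 39.0 and 35.8 TPM (0.06, −0.06 to 0.19, adjusted p = 0.382). Tnip1 was at 210.0, 217 and 208 TPM, against 215, 225 and 218 TPM (−0.05, −0.12 to 0.02, adjusted p = 0.233). Cyld was at 14.9, 15.3 and 15.4 TPM, against 12.9, 12.8 and 13.7 TPM (0.19, SE 0.06, adjusted p = 0.0282). Otud1 was listed at 0.0687 ± 0.0238 TPM in the double knockout and 0.126 ± 0.0511 TPM in wildtype, below the mean of 10 TPM needed for a test.

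In the double knockout, 4 of the 9 genes tested were thus called higher and 2 lower, against 25.4% and 16.6% of all 7782 genes and 42% in all (19.2% and 25.9% after scaling), and 6 of the 9 did not overlap, against 53.9%. At least 2-fold higher were 2 of the 9, against 2.33%. The Cyld call was lost without wildtype replicate 1 (adjusted p = 0.0777) or 2 (0.0879), without double knockout replicate 2 (0.0637) or 3 (0.0827), and after scaling (0.14, adjusted p = 0.0811). After scaling, Zfp36 (−0.14, adjusted p = 0.0232) and Tnip1 (−0.11, adjusted p = 0.0128) were called lower. Zfp36 was also called without double knockout replicate 2 (−0.12, adjusted p = 0.0234). The authors' deposited table called Zfp36 (−0.16) and Tnip1 (−0.11) lower and did not call Cyld (0.16, adjusted p = 0.0625), beside 33.7% of all genes called. The macrophage and dendritic markers given above, Adgre1 lower and Csf1r, Itgam, Fcgr1 and Itgax higher, moved with the knockout, and their part in these results was not tested.

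Of the 15 listed targets 10 were tested in J774.1 cells, and Csf2 and Il6 passed the filter only through wildtype, so that no count is read from this list. Csf2 was at 0.297 ± 0.282 TPM in the double knockout, against 35.5 ± 1.91 TPM in wildtype. Among targets at 10 TPM or more in both groups, Lif fell to 18.2 ± 1.81 TPM in the double knockout, against 94.7 ± 5.51 TPM in wildtype (SD, n = 3 each), and Tnf to 1393 TPM, against 2193 TPM (−0.65), while Il1b rose to 523 TPM, against 283 TPM (0.88, adjusted p = 2.99e-06). Nfkbiz, an NF-kB cofactor gene, was at 52.9 ± 3.82 TPM, against 189 ± 3.77 TPM (log2 fold change −1.82). Among RNA-binding proteins and MK2-arm genes N4bp1 rose by 0.93, and 2 of 10 were called higher and 4 lower. Of 12 other deubiquitinases 3 were called higher and 2 lower (3 and 4 after scaling). The largest rise on that list was of Usp18, the deconjugase of ISG15. It was at 501 ± 31.2 TPM in the double knockout, against 234 ± 2.22 TPM in wildtype (1.09). Of 13 ubiquitin machinery genes 5 were called higher, among them Sharpin and Rnf31 of the linear ubiquitin ligase (0.43 and 0.42), and 1 lower. Of 16 CCR4-NOT genes 2 were called higher, among them Cnot6l (0.66), and 1 lower, Btg1 (−0.53); after scaling it was 2 and 5. Of 10 A20 partners 2 were called higher and 1 lower (1 and 2 after scaling), and of 14 decapping genes 3 and 2 (2 and 5). Beside these list counts stand the all-gene shares, 25.4% called higher and 16.6% lower (19.2% and 25.9% after scaling).

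Levels in the BMDM and J774.1 tables were set by separate runs, so they are given side by side with no test. In the LPS libraries of control siRNA BMDMs and wildtype J774.1 cells, Tnfaip3 averaged 406 ± 67.9 and 36.7 ± 1.95 TPM, and Zc3h12c 126 ± 6.64 and 27.8 ± 0.559 TPM (SD, n = 3 each). Otud1 averaged 8.44 ± 1.30 and 0.126 ± 0.0511 TPM. Zfp36 averaged 298 ± 14.3 and 197 ± 4.07 TPM, and it led its family in both.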

How the data were processed

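Per the labels' protocols, polyadenylated RNA was sequenced with an unstranded TruSeq kit. The authors' deposited tables give TPM per library, made with Salmon at gene level on mm39 per the file headers for BMDMs; the J774.1 header names no unit, and its values sum to about the same total (999503 to 999944 TPM over both tables). Per the submitters' processing notes, Salmon 1.9.0 and DESeq2 1.44.0 in R 4.4.1 were used. The deposited tables also hold the authors' mean normalized counts (a signal over all samples, not used) and, per comparison, a log2 fold change with its p-value. For J774.1 cells, 190 gene IDs stood on more than 1 line with equal values and were counted once.

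Tests covered genes averaging 10 TPM or more, by limma 3.58.1 in R 4.3.3 (lmFit, eBayes with trend and robust) on log2(TPM + 1), which understates changes of low genes. One fit held the 18 BMDM libraries and another the 6 J774.1 libraries. Calls were made where the p-value, adjusted by Benjamini-Hochberg over all genes of each of 12 comparisons, was below 0.05. The fits were tested on simulated data.

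The members and gene lists were chosen with earlier results of these data known. The genes named are the 10 members in every comparison, Ctbp1 and Ctbp2, up to 4 called genes of each list with the largest change, and the 3 nearest genes to Zfp36, Zc3h12a and Tnfaip3; Il1b and Tnf in the double knockout, Tnf, Ccl2 and Ccl3 in LPS, the marker genes and the antisense genes were named after their values were seen. Alternatives were another pseudocount, filter, scaling, moderation and set of libraries, a replicate block, and each library left out. In Ctbp2 siRNA against control siRNA in LPS, all 3 pairs of same-numbered libraries deviated together (correlations 0.10 to 0.19), the only tested contrast where every pair passed 0.1; the block changed no member call there.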

Additional observations from a re-analysis of the deposited data

Results flagged for a closer look

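Zc3h12a moved in opposite directions with less CtBP in the 2 kinds of cell. With Ctbp2 siRNA in LPS BMDMs its log2 fold change was 0.26, each library above all control siRNA libraries, and in LPS-treated double knockout J774.1 cells it was −0.84, each library below all wildtype ones. Cyld moved the other way round, by −0.13 in Ctbp2 siRNA BMDMs, where it was not called, and by 0.19 in the double knockout, again without overlap. Genes were flagged where the groups did not overlap in either comparison and the changes had opposite signs, so both traits follow from that rule. Of all genes, 19.8% did not overlap in the BMDM comparison and 53.9% in the J774.1 comparison. The share of all genes that meet the whole rule was not computed. The Zc3h12a call was kept in 12 of 26 alternatives in BMDMs and in all 13 in J774.1 cells. The Cyld call in J774.1 cells was kept in 7 of 13. An siRNA to 1 gene and a knockout labelled for both are not the same perturbation, the tables were made separately, and the difference between them was not tested. No interaction of an siRNA with LPS was called for any of the 10 genes.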

How the results depend on the processing

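Of 41 calls among the 10 genes, 34 were kept under every alternative. Of the 30 LPS calls 29 were. The exceptions are given in the report, and no called value changed sign. With Ctbp2 siRNA against control siRNA in LPS, 2 genes were called (3.17% of all genes), against 1 with a filter at 1 TPM (1.94%), 1 with no filter (0.578%), 1 with plain eBayes (2.93%) and 0 with only the libraries compared (0.0545%); with 1 library left out it was 1 to 2. Against Ctbp1 siRNA in LPS, 3 were called (6.79%), against 1 with no filter (0.993%) and 0 to 4 with 1 library left out. With Ctbp1 siRNA against control siRNA in LPS, 0 were called, and 0 to 1 with 1 library left out. Why these counts moved was not tested.

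The replicate block changed 1 member call, that of Cyld in the double knockout (adjusted p = 0.0561), where 5 genes were then called in place of 6 (38.1% of all genes). With it, LPS gave 10 calls in each background (76.9% to 79.7%). In LPS, Ctbp2 siRNA gave 2 against control siRNA (5.77%) and 3 against Ctbp1 siRNA (11.5%), and every other siRNA comparison or interaction gave 0 (2.34% or less). Same-numbered BMDM libraries correlated above 0.1 in 21 of 45 pairs (−0.15 to 0.32), and each of the 18 correlated best, on average, with libraries of its own number; in J774.1 cells 1 of 3 pairs did, and 4 of 6 libraries. The labels do not say what a number marks. With no depth per library, counting error is unknown, most of all for Otud1 in J774.1 cells.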
